A study of Mus musculus with 4 samples.

Results

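Transcripts of plasma cells, of B cells and of the epithelial receptor that exports their IgA were measured in colonic mucosa of mice at postnatal day 90 (P90) and, for comparison, at postnatal day 30 (P30). The 9 genes are 5 plasma cell genes (Jchain, Pou2af1, Mzb1, Tnfrsf17 and Derl3), 3 B cell genes (Cd79a, Cd79b and Ms4a1) and Pigr. The members were all gene probes whose accession belongs to 1 of these 9 symbols, which gave 10 probes of 41174 and 19 of 43379 gene spots per array. All 9 genes were found among 17301 named genes, Jchain with 2 probes and Mzb1 with 1 probe that was spotted 10 times.

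Plasma cells of the colon wall make dimeric IgA, which epithelial cells carry into the lumen. The J chain, encoded by Jchain, joins the immunoglobulin units, and the receptor encoded by Pigr binds the joined form at the base of the epithelial cell and moves it across. Mature B cells carry the antigen receptor with its signalling chains Cd79a and Cd79b and the surface protein CD20 (Ms4a1), and they lose much of this equipment when they turn into antibody-secreting cells.

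The study set 1 P90 RNA against 1 P30 RNA on each of 4 two-colour arrays, called a, b, e and k. Both groups were total RNA of colonic mucosa scraped from C57BL/6 mice, with no genetic change or treatment named for either age. The P90 RNA was labelled with Cy5 on array e and with Cy3 on the others, and the P30 RNA carried the other dye. The labels name each RNA by 1 animal and do not say how many cells of each type the scraping took, and in such bulk tissue fewer cells of a type and less RNA per cell cannot be told apart. Values given in series run in the order a, b, e and k.

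Array b stood apart. Across all probes its log2 P90/P30 correlated with that of array a at r = -0.303, whereas arrays a and e correlated at r = 0.58, although the labels give arrays a and b the same dyes. The labelled direction was kept, because the labels state the dyes and call the comparisons independent. Of the gene spots, 55.6%, 69.3%, 65.4% and 57.3% were well above background in the P90 channel, against 71.0%, 66.6%, 64.6% and 69.6% in the P30 channel. The median raw P90 signal was 72, 114, 109.5 and 78, against 142.5, 114, 100 and 118 for P30. These medians include the background, which was 42, 42, 68 and 39 for P90 and 68, 68, 41 and 68 for P30. The P90 median of array e, labelled with Cy5, is thus not directly comparable with the others. By the share of spots well above background, the P90 channel was weaker on arrays a and k than on b and e. The part of this in the member values was not tested. Precision was limited by there being 4 pairs of RNAs. The limma p-value tests whether a gene's mean log2 P90/P30 differs from 0, given the spread between pairs, which may in part be technical.

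The starts of these genes are shown because their products form 1 production line, from the transcription factor partner (Pou2af1) through the J chain and the endoplasmic reticulum protein Derl3 to the epithelial carrier (Pigr). Each sequence runs 5′ to 3′ on the gene's strand, from 250 bases before to 50 bases after the RefSeq start in build GRCm38.p6. Capitals mark the letters ACGTG on either strand, the core shared by elements that XBP1, the plasma cell secretion factor, and other basic leucine zipper proteins can bind. The windows lie at chr5:88527848-88528147 (minus strand) for Jchain, chr9:51213440-51213739 (plus strand) for Pou2af1, chr10:75893148-75893447 (plus strand) for Derl3 and chr1:130826434-130826733 (plus strand) for Pigr.
Jchain: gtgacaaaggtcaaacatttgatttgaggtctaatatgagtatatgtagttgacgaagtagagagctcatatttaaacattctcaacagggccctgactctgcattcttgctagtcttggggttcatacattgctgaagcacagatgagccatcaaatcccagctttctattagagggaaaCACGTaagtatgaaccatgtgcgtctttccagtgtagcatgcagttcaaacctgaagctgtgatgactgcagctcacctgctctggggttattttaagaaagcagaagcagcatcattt
Pou2af1: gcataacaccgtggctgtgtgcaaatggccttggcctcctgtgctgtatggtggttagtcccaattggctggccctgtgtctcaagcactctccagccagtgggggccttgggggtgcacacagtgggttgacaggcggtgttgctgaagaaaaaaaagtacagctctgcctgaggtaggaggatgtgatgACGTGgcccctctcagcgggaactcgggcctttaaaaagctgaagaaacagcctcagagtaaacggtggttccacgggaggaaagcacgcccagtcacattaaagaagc
Derl3: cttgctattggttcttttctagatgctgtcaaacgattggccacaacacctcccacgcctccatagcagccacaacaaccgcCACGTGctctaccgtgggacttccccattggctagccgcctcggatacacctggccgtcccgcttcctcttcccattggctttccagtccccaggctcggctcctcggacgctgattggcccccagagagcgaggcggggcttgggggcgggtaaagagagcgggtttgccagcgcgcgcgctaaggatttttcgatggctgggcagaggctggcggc
Pigr: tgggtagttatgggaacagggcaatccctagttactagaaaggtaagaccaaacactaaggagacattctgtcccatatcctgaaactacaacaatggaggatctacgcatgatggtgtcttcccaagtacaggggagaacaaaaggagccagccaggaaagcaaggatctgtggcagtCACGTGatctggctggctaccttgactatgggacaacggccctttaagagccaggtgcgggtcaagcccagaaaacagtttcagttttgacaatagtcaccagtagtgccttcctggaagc

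Of 6 members with a window in the RefSeq table, the 4 printed held ACGTG, and Tnfrsf17 and Cd79a did not. Among 32851 promoter windows of the same length, 19.6% held it. In Pou2af1 the match lay inside the longer XBP1 element TGACGTGG, which 0.676% of windows held. In Derl3 and Pigr it was part of the palindrome CACGTG, an E-box, which 7.15% of windows held. The octamer ATGCAAAT, the element through which the Pou2af1 protein joins octamer factors, was searched on both strands with no match in the 6 windows, against 1.74% of all windows. The EBF1 element (TCCC, any 2 bases, GGGA) had no match in them either (0.904% of all windows). The interferon response element (GAAA, any 2 bases, GAAA) had 1 match, in Tnfrsf17 (3.44% of all windows). The Tnfrsf17 window, chr16:11313559-11313858 (plus strand), lies inside the span listed for the gene, 11313232 to 11320074. Neither this match nor the lack of ACGTG thus describes the listed start of Tnfrsf17. The ACGTG matches include those of TGACGTGG and CACGTG, and all are letter matches only.

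The filter on dim probes kept all 9 members, Cd79a and Tnfrsf17 through the P30 channel alone. None of the 9 passed the limma test after Benjamini-Hochberg adjustment over 20825 genes, where 0% of all genes passed and 0.617 was the lowest adjusted p. One member, Derl3, had an unadjusted limma p below 0.05, against 7.9% of all genes (2.59% higher and 5.31% lower at P90). A mean above 0 was found in 7 members, against 45.6% of all genes, and the median of the 9 means was 0.41 on the log2 scale beside -0.020 over all genes tested. That median was 0.013 without array b, 0.095 without array e and -0.27 with the sign of array b turned. Without array b the means of Jchain and Pou2af1 were below 0, and with its sign turned so were those of Mzb1, Tnfrsf17 and Cd79b. Derl3 and Cd79a were above 0 on all 4 arrays, a pattern that 6.15% of all genes showed, and no member was below 0 on all 4, as 7.98% of all genes were. One direction on all 4 arrays, in either sense, was thus seen in 2 of 9 members and in 14.1% of all genes. On arrays a, e and k alone it was seen in 3 of 9 members (Pigr added) and in 47.5% of all genes. The median SD over the 4 arrays was 0.87 for the members and 0.35 for all genes, and it was above 1 in Jchain, Pou2af1, Mzb1 and Pigr, against 5.61% of all genes.

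Jchain had the widest spread of the members. Its normalized signal was 1468, 18864.5, 13513 and 745 in the P90 RNAs of arrays a, b, e and k. In the P30 RNAs it was 2151, 2246, 4177 and 3508. The P90 RNAs of b and e thus lay above every P30 RNA and those of a and k below every P30 RNA. The signals include an offset of 50 and were made comparable between arrays. They spanned 25.3-fold among the P90 RNAs and 1.94-fold among the P30 RNAs. This gave log2 P90/P30 values of -0.55, 3.07, 1.69 and -2.23, with a mean of 0.49 ± 2.35 (SD, n = 4; limma adjusted p = 0.924). Its SD was above that of 99.8% of all genes tested.

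The second Jchain probe showed the same order of arrays. Its log2 P90/P30 was -0.33, 4.49, 1.16 and -1.80, and its mean was 0.88. Its signal was 745, 8347, 3806 and 309 in the P90 RNAs, against 934, 372, 1699 and 1074 in the P30 RNAs. Here the P90 RNAs of b and e lay above every P30 RNA and that of k below every one. Without array b the mean of the first Jchain probe was -0.36, so the sign of the Jchain mean rests on that array.

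**Figure D1:**
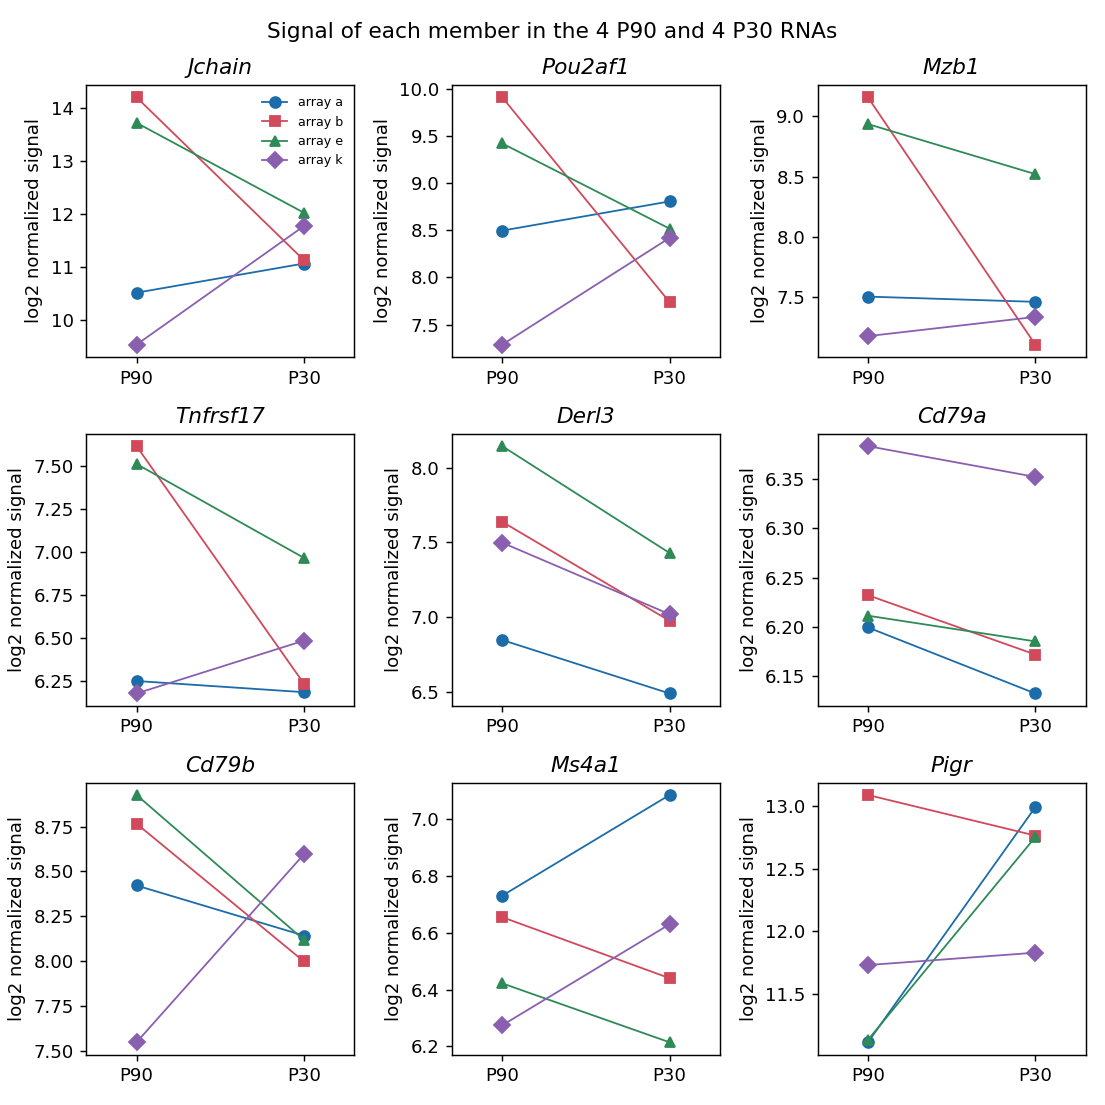
Normalized log2 signal (vertical axes, scaled separately in each panel) of the 9 members in the P90 RNA (left) and the P30 RNA (right) of each array; lines join the 2 RNAs of an array, and Jchain is shown by its brighter probe. The Jchain lines cross, with the P90 signals spread over 25.3-fold and the P30 signals over 1.94-fold, whereas in all 4 Derl3 lines the P90 end is the higher one.

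Pou2af1 encodes the B lineage coactivator that works with octamer factors on immunoglobulin promoters. Its signal was 361, 960.6, 685 and 156 in the P90 RNAs, against 447, 213, 366 and 342 in the P30 RNAs. The P90 RNAs of b and e were again above every P30 RNA, and that of k was below every one. Its log2 P90/P30 was -0.31, 2.17, 0.90 and -1.13, with a mean of 0.41 ± 1.44 (SD, n = 4; limma adjusted p = 0.883). Without array b the mean was -0.18.

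Mzb1 encodes an endoplasmic reticulum protein that helps assemble secreted immunoglobulin. Its signal was 182, 570.3, 489 and 145 in the P90 RNAs, against 176, 138, 367 and 162 in the P30 RNAs. The P90 RNAs of b and e lay above every P30 RNA, and those of a and k lay within the P30 range. On the log2 scale, P90/P30 was 0.043, 2.05, 0.41 and -0.16, with a mean of 0.59 ± 1.002 (SD, n = 4; limma adjusted p = 0.707). Without array b the Mzb1 mean was 0.0995, and with that array's sign turned it was -0.44.

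The repeat spots of the Mzb1 probe gave the measuring error between spots of 1 array, which leaves out labelling, hybridization and differences between animals. After outlier spots were left out, 9, 10, 8 and 8 spots remained. Their SD within an array was 0.082, 0.074, 0.048 and 0.097, whereas the SD between the 4 array means was 1.002. On array b the spots ran from 1.94 to 2.16, and on array e, the next highest, from 0.35 to 0.47. The spots of b and e thus did not overlap.

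**Figure D2:**
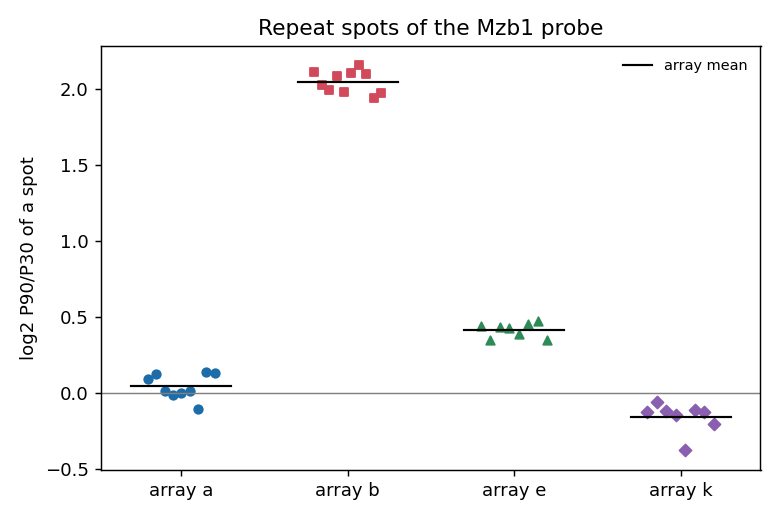
Log2 P90/P30 (vertical axis) of the single spots of the Mzb1 probe on each array, with the array mean as a bar. The spots of array b, from 1.94 to 2.16, lie apart from those of the other arrays, and the SD within an array is at most 0.097.

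Tnfrsf17 encodes BCMA, a receptor through which plasma cells receive survival signals. Its signal was 76.1, 196, 182 and 72.4 in the P90 RNAs, against 72.7, 75.3, 125 and 89.5 in the P30 RNAs. It was well above background in all 4 P30 RNAs but in the P90 RNAs of b and e only. Its log2 P90/P30 was 0.065, 1.38, 0.55 and -0.31, with a mean of 0.42 ± 0.73 (SD, n = 4; limma adjusted p = 0.722). The P90 signals of a and k and the P30 signals of a, b and k were close to the offset, so the ratios on arrays a, b and k are compressed. The mean was 0.10 without array b and -0.27 with that array's sign turned, and the authors' deposited log ratios gave 0.15.

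Jchain, Pou2af1, Mzb1 and Tnfrsf17 had their ratios in the same order, from array b at the top through e and a to k at the bottom. This order was noticed after the values were seen, and 4.7% of all genes tested had it. Ms4a1 had it too, with ratios on a and k that were almost equal. Ratios above 0 on b and e and below 0 on a and k were found in Jchain, Pou2af1 and Ms4a1, and in 4.54% of all genes. The shortest distance between any of these genes over the 4 log2 ratios was that of Mzb1 and Tnfrsf17, at 0.69. For 7 of the 9 members the SD of the log2 level was larger among the P90 RNAs than among the P30 RNAs, which held for 57.8% of all genes. A range over 4 log2 units among the P90 RNAs, as Jchain had, was found in 0.312% of all genes.

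Derl3 did not share this order. It encodes a membrane protein of the endoplasmic reticulum that helps remove misfolded proteins and is abundant in secretory cells, so it is not a marker of plasma cells alone. Its signal was 115, 199, 283 and 181 in the P90 RNAs, against 90.0, 126, 172 and 130 in the P30 RNAs. On each array the P90 RNA was above its P30 partner, and the P90 RNAs of b, e and k were above every P30 RNA. The log2 P90/P30 was 0.36, 0.66, 0.71 and 0.48, with a mean of 0.55 ± 0.17 (SD, n = 4), a 1.47-fold difference with a 95% interval of 0.23 to 0.87 in log2. The unadjusted limma p was 0.00563 and the adjusted p was 0.617, so Derl3 was not called. Its mean was above 0 under all 18 alternatives, from 0.22 to 1.02, and its adjusted p ran from 0.129 to 0.9998.

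**Figure D3:**
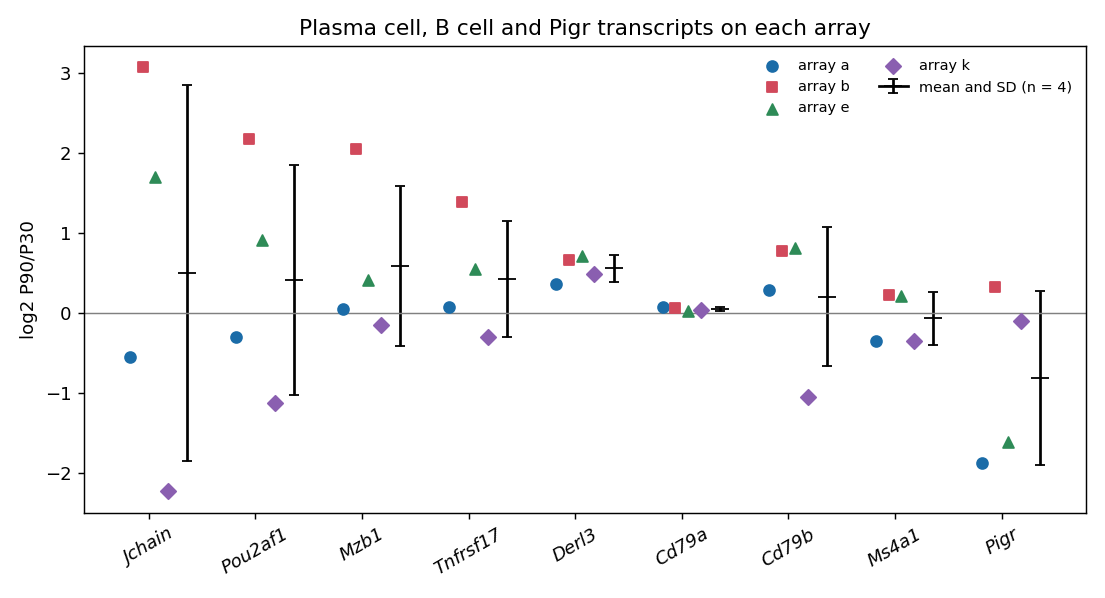
Log2 P90/P30 (vertical axis) of the 9 members on each array, with the mean and SD over the 4 arrays beside them. All plasma cell genes but Derl3 run from array b at the top to array k at the bottom around means between 0.41 and 0.59, while Derl3 stays between 0.36 and 0.71.

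Of the B cell genes, Cd79b, a signalling chain of the B cell receptor, was the one well above background in every RNA. Its signal was 343, 435, 486 and 187 in the P90 RNAs, against 282, 256, 278 and 387 in the P30 RNAs. The P90 RNAs of b and e were above every P30 RNA and that of k was below every one. The log2 P90/P30 was 0.28, 0.77, 0.81 and -1.05, with a mean of 0.20 ± 0.87 (SD, n = 4; limma adjusted p = 0.919). The mean was 0.013 without array b, -0.00027 without e and 0.62 without k. It was -0.18 with the sign of array b turned and -0.12 when arrays were centred on their median in place of loess.

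Ms4a1 and Cd79a were dim. The signal of Ms4a1 was 106, 101, 85.8 and 77.4 in the P90 RNAs, against 136, 86.8, 74.3 and 99.1 in the P30 RNAs. All 4 P90 values lay within the range of the P30 values. Its log2 P90/P30 was -0.36, 0.22, 0.21 and -0.36, with a mean of -0.072 ± 0.33 (SD, n = 4; limma adjusted p = 0.947), while the authors' deposited log ratios gave -0.50. Cd79a, the partner chain of Cd79b, passed the filter on dim probes through the P30 channel only, being well above background in 3 P30 RNAs and 2 P90 RNAs. Its signal was between 73.5 and 83.5 in the P90 RNAs and between 70.2 and 81.7 in the P30 RNAs. Its mean log2 P90/P30 of 0.046 ± 0.020 (SD, n = 4; limma adjusted p = 0.951) is compressed by the offset of 50, and the authors' deposited log ratios gave 0.29.

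Pigr is the epithelial gene of the set. Its signal was 2219, 8717, 2248 and 3402 in the P90 RNAs, against 8145, 6962, 6905 and 3643 in the P30 RNAs. The P90 RNA of b lay above every P30 RNA and those of a, e and k below every one, that of k by little. The log2 P90/P30 was -1.88, 0.32, -1.62 and -0.099, with a mean of -0.82 ± 1.09 (SD, n = 4). The 95% interval ran from -1.84 to 0.20 and the limma adjusted p was 0.643, so Pigr was not called. The mean was below 0 under all 18 alternatives, from -1.21 to -0.46, though several of these, such as other filters on dim probes, could not change it. On array e, where Jchain was at 1.69, Pigr was at -1.62, and Pigr minus the plasma cell median was -1.92, -1.72, -2.33 and 0.21. A ratio above 0 on array b and below 0 on the other arrays, as Pigr had, was found in 19.1% of all genes.

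The genes most like 3 of the members were sought by Euclidean distance over the 4 log2 ratios, among 13903 named genes. The 6 nearest to Jchain were Grrp1, Apoe, Slc22a4, Cyp3a25, Htra3 and Hspa1a, at distances from 1.89 to 2.27, where the median gene was at 4.28. Pou2af1 was nearer to Jchain than any of these, at 1.65. The 6 nearest to Pigr were Pabpc2, Tceal9, Dnajc1, Dnajc10, Pla2g4a and Cd24a, at distances from 0.34 to 0.46, with a median gene at 2.57. Dnajc10, at 0.43, encodes an endoplasmic reticulum disulfide reductase, and Cd24a, at 0.46, a surface protein of immature epithelium and B cells. The 6 nearest to Cd79a (Adgrg5, 1700123K08Rik, Arhgap19, Dennd5b, Pot1b and Olfr629) all had means between 0.020 and 0.057, close to 0 like Cd79a itself.

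Further B cell genes had medians near 0. Of 18 further B cell genes 14 passed the filter, none was called, 10 had a mean above 0 and 4 below, and the list medians were 0.0083, 0.059, 0.065 and 0.014. The early B cell factor Ebf1, the kinase Blk, Cd180 and the adaptor Bank1 did not pass the filter. Blnk, an adaptor of B cell receptor signalling, had the highest intensity of the list and was at -0.11 ± 0.50 (SD, n = 4). Spib, an Ets factor that tuft cells, M cells and B cells use, was above 0 on all 4 arrays, at 1.15, 0.026, 0.96 and 1.16, with a mean of 0.82 ± 0.54 (limma adjusted p = 0.617).

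Of 13 further plasma cell genes 9 passed the filter, none was called, and 4 had a mean above 0 and 5 below. Their medians were -0.020, 0.20, -0.40 and 0.012. Irf4, the IgA plasma cell chemokine receptor Ccr10, the receptor Tnfrsf13b and Fcrl5 did not pass the filter. Prdm1, the factor that sets the antibody-secreting state, was at -0.81, 0.037, -0.46 and -0.87, with a mean of -0.53 ± 0.42 (SD, n = 4). It was chosen after its values were seen, as the one gene of the list with an unadjusted limma p below 0.05. The brightest of the list are also epithelial genes. Syndecan 1 (Sdc1) was at 0.23 ± 0.35 (SD, n = 4) and the secretion factor Xbp1 at 0.43 ± 0.54, with 0.64 on array b and 1.09 on array k.

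Of 18 genes that support IgA responses, 17 had a named probe and 15 passed the filter. None was called, with 6 means above 0 and 9 below and a median of -0.028. Ccl25, a chemokine that draws IgA cells to the gut, was at -0.50 ± 1.33 (SD, n = 4), and Ltb, a cytokine of lymphoid tissue, at 0.11 ± 0.54. No immunoglobulin chain gene was named by the accessions used here, so these chains were not analysed.

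Of 12 genes through which Pigr is known to be regulated, 11 had a named probe and all 11 passed the filter. Of these, 8 had a mean above 0 and 3 below, and none was called. The interleukin 17 receptor gene Il17ra was above 0 on all 4 arrays, with a mean of 0.43 ± 0.088 and 0.51 on its second probe (limma adjusted p = 0.617). Stat6, which carries the interleukin 4 signal, was at 0.28 ± 0.059, also above 0 on all 4 arrays. The brightest members, Ifngr1 and Irf1, were at -0.27 ± 0.60 and 0.15 ± 0.34. The NF-kB subunit gene Relb, chosen after its values were seen, was at 0.49 ± 0.32 and above 0 on all 4 arrays.

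Markers of other cell types also differed between arrays. Adipocyte markers, 7 of 8 passing the filter and all 7 with a mean above 0, had medians of 0.056, 2.35, 5.46 and 0.57, with b and e high as for Jchain. Their summed signal ran from 6335 to 193944 in the P90 RNAs and from 3729 to 12696 in the P30 RNAs, and Lep did not pass the filter. Adipsin (Cfd) was at 1.77, 3.53, 6.87 and 1.73 and adiponectin (Adipoq) at 0.77, 2.65, 6.32 and 1.68. Plin4 was at 1.23, 2.04, 6.10 and 0.57. The 2 brightest genes of the list, Cidec and Fabp4, were below 0 on arrays a and k. Cidec was at -0.31, 0.78, 3.22 and -0.62 and Fabp4 at -1.04, 2.94, 3.97 and -0.67. Cfd and Fabp4 were each saturated in 1 P90 RNA, so their ratio and the summed signal there may be underestimated. The part of adipocytes in the Jchain result was not tested.

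Myeloid markers, 6 of 7 measured, had medians of -1.46, 1.05, -0.39 and -1.58, and all 6 were highest on array b, as Jchain was. C1qa and C1qc had the order of arrays that Jchain had, and the other 4 did not. Their summed signal ran from 1135 to 3807 in the P90 RNAs and from 1300 to 5532 in the P30 RNAs. The complement gene C1qc was at -0.71 ± 1.36 (SD, n = 4) and C1qa at -0.55 ± 1.35. Matrix markers, all 7 measured, were above 0 on array b only, with medians of -4.23, 1.37, -2.36 and -3.21, and Pigr was likewise above 0 on b only. Their summed signal ran from 2043 to 29354 in the P90 RNAs and from 10708 to 87607 in the P30 RNAs, and Col3a1 and Col1a2 were at -2.45 ± 2.73 and -2.11 ± 2.53. The part of these cells in the results above was not tested.

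T cell markers, all 9 measured, had medians of -0.22, 0.15, 0.17 and 0.19, with Lck at 0.031 ± 0.53 (SD, n = 4) and Thy1 at -0.19 ± 0.77. Smooth muscle markers, all 6 measured, had medians of 0.59, 0.79, 1.08 and -0.82, with Acta2 at -0.0031 ± 0.69 and Tagln at 0.16 ± 0.95. Of 8 epithelial markers 3 (Krt8, Krt18 and Cldn7) were saturated at both ages on all 4 arrays, so no ratio is given. Epcam and Cdh1, chosen after their values were seen because they were the least saturated, were at -0.34 ± 0.36 and 0.089 ± 0.37.

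**Figure D4:**
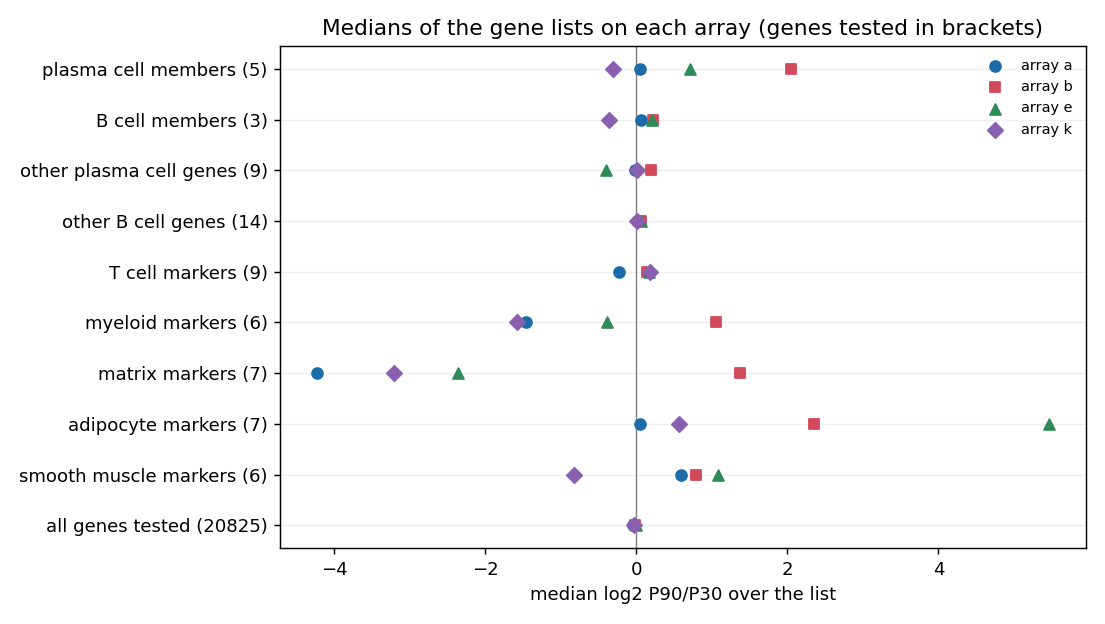
Median log2 P90/P30 (horizontal axis) of each gene list on each array, with the number of genes tested in brackets. The plasma cell members reach 2.05 on array b and -0.31 on array k, the adipocyte markers 5.46 on array e and the matrix markers -4.23 on array a, while all genes tested stay near 0.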

How the data were processed

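Total RNA of colonic mucosa at P90 and P30 was compared on 4 two-colour arrays of 1 design. The deposited scanner files hold linear intensity (median spot and local background signals), the scanner software's processed intensity, its log10 ratio of Cy5 over Cy3 and unitless (other) marks for background, saturation and outliers, per the file headers, from Agilent Feature Extraction 10.5.1.1 (8.5.1.1 per the submitters' processing notes). The deposited value table holds log2 ratios, found to be P90 over P30 by setting them against the scanner ratios. Here median signals were corrected with normexp (offset 50) and loess (span 0.3, control spots at weight 0) in limma 3.58.1 under R 4.3.3, and ratios were turned to log2 P90/P30. Outlier spots were left out. Probes well above background on at least 3 arrays in 1 channel were kept (27055), and the brightest probe stood for its gene. Signals were aligned between arrays with Aquantile. The mean ratio was tested against 0 (lmFit, eBayes, Benjamini-Hochberg, threshold 0.05). The fit was tested on simulated data. RefSeq accessions of GRCm38.p6 named 25089 probes. Genes are named by a rule: all members; in each list those past the test, or else the 2 brightest and up to 3 with 1 direction on all arrays; and the 6 nearest to Jchain, Cd79a and Pigr. Other list genes are named where they did not pass the filter, were counted or were less bright than saturated ones. The values of 1 gene of the Pigr regulation list that this rule names are not reported here. Members and lists were chosen with earlier results of these data known.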

Additional observations from a re-analysis of the deposited data

Results flagged for a closer look

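Among 89 sets of 4 array values, 2 list medians had 1 array far from the other 3 by Dixon's test, which chance alone gives in about 1 of 20 sets. The median of the Pigr regulation genes was 0.32 on array e, against 0.084 to 0.12 on the others, a gap of 0.834 of the whole range. The median of the T cell markers was -0.22 on array a, against 0.15 to 0.19 on the others, a gap of 0.906 of the whole range. No member's ratios or signals were marked.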

How the results depend on the processing

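The 9 members were recomputed under 18 alternatives, which gave 161 values, and none was called. Of these values 148 kept the sign and 13 did not. That count overstates the agreement, because several alternatives could not move a member. Other filters on dim probes, testing each probe and leaving out saturated spots returned the main value of each member that was kept. Averaging a gene's probes moved Jchain alone, and the deposited log ratios and the value table gave nearly the same values. With the sign of array b turned, the median of the member means was -0.27, Jchain was at -1.04, Pou2af1 at -0.68, Mzb1 at -0.44, Tnfrsf17 at -0.27 and Cd79b at -0.18. With array weights Jchain was at -0.064, with median centring Cd79b was at -0.12, and with a dye term Ms4a1 was at 0.021. Leaving out 1 array in turn gave -0.36 to 1.40 for Jchain and -0.18 to 0.92 for Pou2af1, both lowest without array b, -0.00027 (without e) to 0.62 (without k) for Cd79b and -0.17 (without b) to 0.022 (without a) and 0.023 (without k) for Ms4a1. It gave 0.0995 to 0.83 for Mzb1 and 0.10 to 0.66 for Tnfrsf17, both lowest without array b, and 0.013 to 0.62 for the median of the members. The causes were not tested. Derl3 and Pigr kept their sign throughout. Cd79a kept its sign in 17 alternatives and did not pass the strict filter on dim probes. Over all genes, 2 were called, Cyp3a16 and Cyp3a44, with a normexp offset of 10, with processed signals, with the log ratios as deposited and in the value table, and 0 otherwise. An unadjusted limma p below 0.05 was found for 1645 genes in the main fit and for 682 without array a. It was found for 4654 genes without array b and for 4973 with the sign of array b turned. In these 2 settings the lowest limma adjusted p was 0.080 and 0.067. The number of members with 1 direction on every array was 2, and 3 (Pigr added) without array b, an alternative chosen after seeing the data, where 47.5% of all genes had 1 direction. The test of each array's own ratio is already paired, so no further block was fitted. Low signal limits Cd79a, Ms4a1 and Tnfrsf17 and several of the further B cell genes, whose levels lie near the offset. The size of the Derl3 mean also depended on the processing, at 0.77 with an offset of 10 and 0.94 in the deposited log ratios.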
